A study of Mus musculus with 19 samples.

Results

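The intermediate filament genes of the axon were followed in ribosome-bound mRNA of spinal cord cholinergic neurons. They are the neurofilament light, medium and heavy chains (Nefl, Nefm and Nefh), alpha-internexin (Ina) and peripherin (Prph). Members were the rows of the count table with these symbols, which found all 5 among 50559 genes, and all 5 were among the 15572 genes that passed the filter on low counts. The mice were wild-type C57BL/6J males aged 10 wk that carried ChAT-Cre;RiboTag fx/+, kept under 12 h of light and 12 h of darkness. ChAT-Cre acts in cells that express choline acetyltransferase, which covers motor neurons and other cholinergic neurons of the cord alike, and there a ribosomal protein gains a hemagglutinin tag. Precipitating the tag recovers mRNA held on the tagged ribosomes. Cords were taken at Zeitgeber times ZT0 (lights on), ZT4, ZT8, ZT12 (lights off), ZT16 and ZT20. Each time point had 3 biological replicates, which gave 18 immunoprecipitates, and 1 further library was made from pooled input, that is, homogenate before precipitation. All groups shared genotype, sex and age, and the animals behind the pooled input are not given in the sources used here.

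Intermediate filament proteins share a central coiled-coil rod, by which they pair and bundle into ropes without polarity. Nefl forms the core of the neurofilament, whereas Nefm and Nefh carry long phosphorylated tails that project from it and bear on axon calibre. Ina joins the same filaments in central neurons, and Prph is made mainly in neurons that send axons to the periphery, among them motor and sensory neurons. Neurofilament protein is a blood marker of axon damage in motor neuron disease.

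The shared rod bears on how firmly reads can be assigned to 1 member. The longest identical stretch of coding sequence between any pair of members was from 13 to 35 bases over the 10 pairs. The other 9 intermediate filament genes shared at most 36 coding bases with a member. Reads were paired and 150 bases long, which exceeds all of these stretches. All 95 deposited values of the members were exact whole numbers, although the quantification can split a read between genes.

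Nefl lies on chromosome 14 from 68083863 to 68089095 on the plus strand, and Nefm from 68119545 to 68125004 on the minus strand (RefSeq, GRCm38.p6, 1-based). A gap of 30449 bases separates them. Nefh lies on chromosome 11 from 4938754 to 4948064 (minus), Ina on chromosome 19 from 47014681 to 47025327 (plus) and Prph on chromosome 15 from 99053579 to 99058978 (plus). GENCODE M21 also holds an Nefm transcript of 3680 bases with an exon that overlaps Nefl over 1108 bases on the opposite strand. The library kit marks strand but the strand setting of the counting is not given in the sources used here, so the part of this overlap in the values of Nefl and Nefm was not tested.

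Depth was from 6302150 to 22406844 expected counts in the immunoprecipitates and 15239792 in the input. The 6 cholinergic markers (Chat, Slc5a7, Slc18a3, Ache, Isl1 and Mnx1) had a summed level of 901 to 2399 CPM (counts scaled to a common library size by TMM) in the immunoprecipitates and 334 CPM in the input. Oligodendrocyte markers summed to 1538 to 2919 CPM against 21254 CPM, astrocyte markers to 519 to 824 CPM against 3444 CPM and sensory neuron markers to 2.5 to 8.61 CPM against 40.4 CPM. No listed marker was at 0 in all immunoprecipitates. The summed cholinergic level was not even over the day. It was 901 to 1678 CPM at ZT8, below the 1903 to 2301 CPM at ZT0 without overlap. On the first principal component (52.8% of the variance), ZT8 replicates 2 and 3 had the highest scores, 42.6 and 29.7. The next library, ZT4 replicate 2, was at 19.9. At the other end lay ZT16 replicate 2 at -27.9 and ZT0 replicate 1 at -22.3. ZT8 replicates 2 and 3 also had the lowest cholinergic sums of all.

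The 4 members Nefl, Nefm, Nefh and Prph were far more abundant in the immunoprecipitates than in the input, and Ina was not. Enrichment was taken as a mean CPM of 2-fold the input or more, with every one of the 18 immunoprecipitates above it. Of 17901 genes compared, 13.7% met this rule. With 1 input library there was no test. Prph was at 2987 ± 337 CPM (SD, n = 18; lowest 2380, median 3005, highest 3592) against 114 CPM in the input (exact 95% Poisson interval, 110 to 119, counting error only), a ratio of 26.1. It ranked 13th of all genes compared. Nefh was at 9295 ± 762 CPM (lowest 8213, median 9152, highest 11015) against 909 CPM (895 to 923), a ratio of 10.2. Nefm was at 11680.3 ± 1739 CPM (lowest 8544, median 11473, highest 14686) against 1414 CPM (1397 to 1431), a ratio of 8.26. The light chain had the smallest ratio of the 4, 6.54, with Nefl at 12525 ± 1495 CPM (lowest 9474, median 12344, highest 15148) against 1915 CPM (1896 to 1935). No immunoprecipitate of these 4 genes came near its input level.

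Ina stood on the other side. It was at 204 ± 21.9 CPM in the immunoprecipitates (SD, n = 18; lowest 157, median 207, highest 245) against 300 CPM in the input (292 to 308), so that the input was 1.47-fold higher. All 18 immunoprecipitates lay below the input, as they did for 32.2% of the genes compared, but the ratio was under 2-fold and Ina was not called depleted. In this bulk material, fewer cells of a type and less RNA per cell cannot be told apart, and how many of the tagged cells hold Ina mRNA was not measured.

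**Figure D1:**
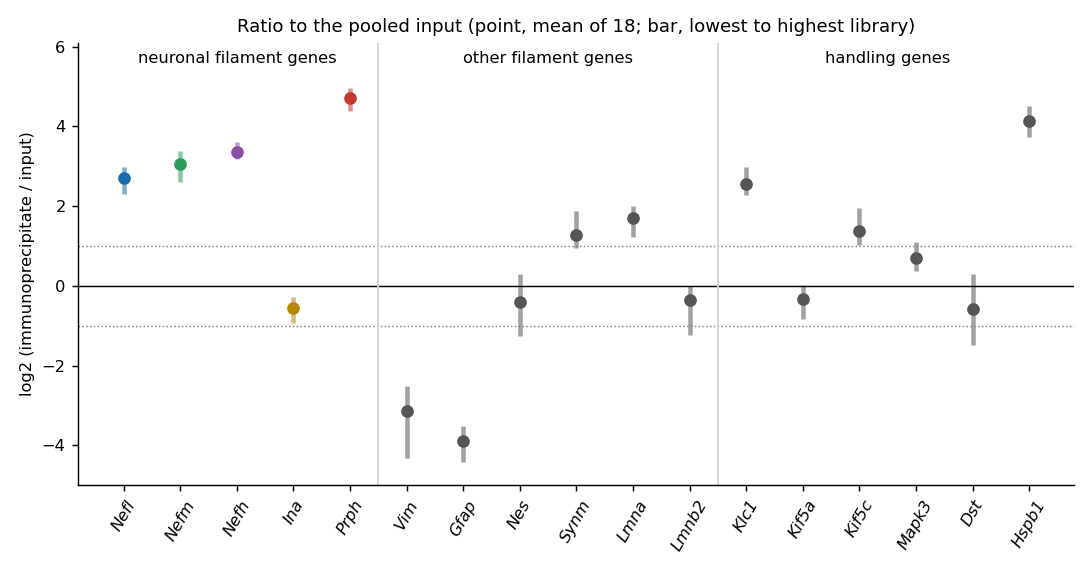
log2 ratio of CPM in the immunoprecipitates to CPM in the pooled input, for the 5 members, 6 other intermediate filament genes and 6 genes that handle neurofilaments. Points are means over 18 libraries, bars run from the lowest to the highest library and dotted lines mark 2-fold. Nefl, Nefm, Nefh and Prph lie between 2.71 and 4.71, Ina at -0.56, and Vim and Gfap below -3.

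Compared per kilobase of the longest annotated mRNA, the members had the order Nefl, Nefm, Nefh, Prph, Ina in the immunoprecipitates. The levels were 3706 ± 442, 3174 ± 472, 2327 ± 191, 1604 ± 181 and 62.9 ± 6.75 CPM per kilobase (SD, n = 18). Each neighbour in this order was above the next in 18 of 18 libraries. The step from Nefl to Nefm was the smallest, 1.17-fold, and that from Prph to Ina was 25.5-fold. Among 37703 genes with a length, Nefl ranked from 1st to 6th per kilobase in the immunoprecipitates, Nefm from 2nd to 7th, Nefh from 5th to 11th and Prph from 13th to 23rd. Ina ranked from 1026th to 1697th. In the input the order was Nefl (567 CPM per kilobase), Nefm (384), Nefh (228), Ina (92.5) and Prph (61.4), with Ina and Prph exchanged. Of the summed level per kilobase of the 5 genes, Prph made up 14.9 ± 2.54% in the immunoprecipitates and 4.61% in the input, whereas Ina made up 0.579 ± 0.0494% and 6.94%. The members together took 2.96 to 4.15% of all counts of an immunoprecipitate and 0.577% of those of the input. With all exons of a gene merged, Nefm (5.782 kb in place of 3.68 kb) fell behind Nefh, at 2020 against 2327 CPM per kilobase. With the length of the mRNA that has the longest coding sequence, the step from Nefl to Nefm was 1.06-fold and held in 16 of 18 libraries.

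Over the day, Nefl and Nefm were lowest at ZT8 and highest at ZT16. The level of Nefl was 13481, 12433 and 13660.5 CPM at ZT0, 12155, 10572 and 11791 CPM at ZT4, and 11787, 10143 and 9474 CPM at ZT8 (replicates 1, 2 and 3 throughout). It was 12254, 13817 and 13496 CPM at ZT12, 15148, 14523 and 12001 CPM at ZT16, and 12929, 13763 and 12022 CPM at ZT20. The 3 libraries of ZT8 lay below all of ZT0, ZT12, ZT16 and ZT20, and overlapped with ZT4. The mean of the highest time point was 32.7% above that of the lowest.

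For Nefm the values were 13185, 11648 and 13395 CPM at ZT0, 10627, 9304 and 11022 CPM at ZT4, and 11118, 8544 and 8854 CPM at ZT8. They were 10974, 13914 and 12366 CPM at ZT12, 13770, 14686 and 11297 CPM at ZT16, and 11746, 12688 and 11106 CPM at ZT20. ZT8 lay below ZT0 and ZT16 without overlap and reached into ZT12 and ZT20 through replicate 1, its highest library. The swing between time point means was 39.4% for Nefm, the widest of the members.

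Nefh had the narrowest course. Its values were 8967, 8446 and 9955 CPM at ZT0, 8614, 8381 and 9493 CPM at ZT4, and 8573, 9212 and 8213 CPM at ZT8. They were 8906, 11015 and 9929 CPM at ZT12, 10290, 10170 and 9092 CPM at ZT16, and 8957, 9611 and 9489 CPM at ZT20. No pair of time points was free of overlap, and the mean at ZT12 was 14.8% above that at ZT8.

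Ina, too, had its lowest mean at ZT8. Its values were 218, 228 and 224 CPM at ZT0, 180.0, 196 and 227 CPM at ZT4, and 195, 157 and 176 CPM at ZT8. They were 182, 196 and 212 CPM at ZT12, 209, 245 and 192 CPM at ZT16, and 205, 215 and 211 CPM at ZT20. ZT8 lay below ZT0 and ZT20 without overlap, and ZT0 was 27.3% above ZT8 in the means.

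Prph had its lowest mean at ZT0 and its highest at ZT8. Its values were 2536, 2813 and 2429 CPM at ZT0, 2732, 3054 and 3592 CPM at ZT4, and 3053, 3372 and 3219 CPM at ZT8. They were 3414, 3170 and 2957 CPM at ZT12, 2934, 2380 and 3163 CPM at ZT16, and 2789, 2896 and 3273 CPM at ZT20. ZT8 and ZT12 each lay above ZT0 without overlap, and the means of ZT8 and ZT0 differed by 24.0%.

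**Figure D2:**
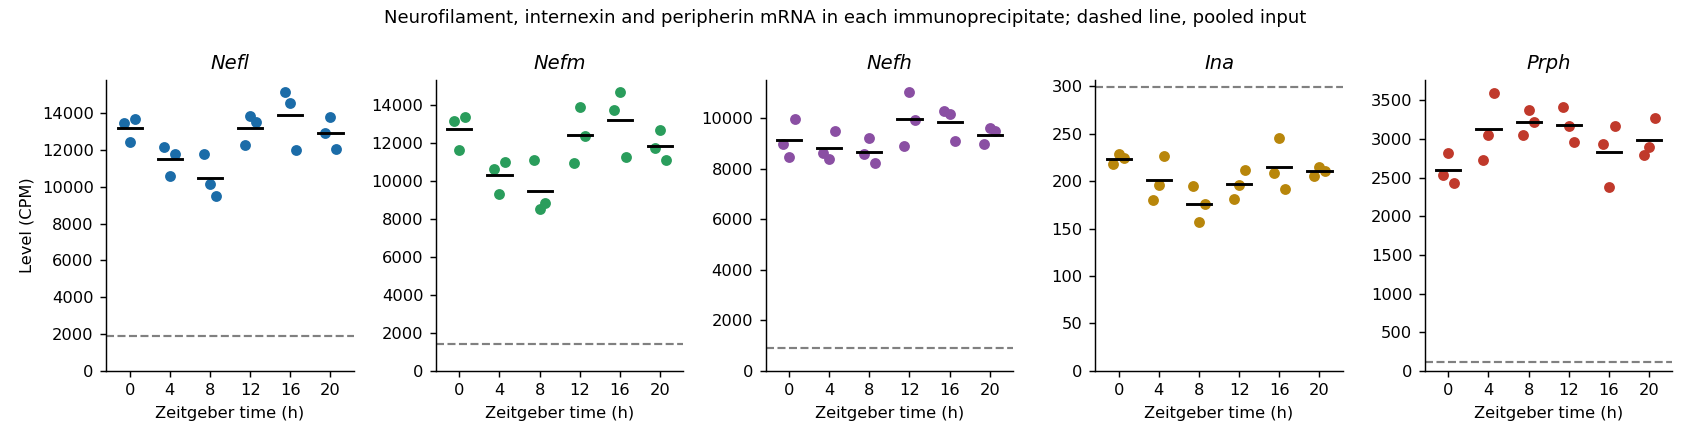
Level of each member in CPM (linear axis from 0) against Zeitgeber time, 1 point per immunoprecipitate, with bars at the mean of 3 and a dashed line at the pooled input. Nefl, Nefm and Ina have their lowest mean at ZT8, where Prph has its highest, and all points of Ina lie under the input line at 300 CPM.

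Whether these courses differed beyond the spread between animals was tested with edgeR's quasi-likelihood F-test, with Benjamini-Hochberg adjustment over all 15572 genes. The pairs ZT8 against ZT0 and ZT16 against ZT8 were taken because earlier work on these data showed them to differ most. The adjustment covers genes and not this choice of pairs. Between ZT8 and ZT0, 3 of the 5 members were lower at ZT8 and none was higher. Of all genes tested, 9.02% were called lower and 8.95% higher. Nefm fell by 0.41 ± 0.11 on the log2 scale (SE; adjusted p = 0.0168), Ina fell by 0.34 ± 0.11 (adjusted p = 0.0378) and Nefl fell by 0.32 ± 0.09 (adjusted p = 0.0227). Prph differed by 0.32 ± 0.11 in the other direction and missed the threshold (adjusted p = 0.0508), and Nefh differed by -0.06 ± 0.08 (adjusted p = 0.664). Groups did not overlap for 4 members, against 34.7% of all genes. The median log2 change of the members was -0.32 and that of all genes -0.003.

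Between ZT16 and ZT8, 2 of the 5 members were higher at ZT16 and none was lower, against 9.11% and 7.8% of all genes. Groups did not overlap for these 2, against 27.1% of all genes. Nefm rose by 0.47 ± 0.11 (adjusted p = 0.00981) and Nefl by 0.40 ± 0.09 (adjusted p = 0.00937). Ina differed by 0.28 ± 0.11 (adjusted p = 0.0774), Nefh by 0.18 ± 0.08 (adjusted p = 0.160) and Prph by -0.19 ± 0.11 (adjusted p = 0.250). This pair shares the libraries of ZT8 with the one before, so the 2 sets of values are not independent of each other.

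Between ZT20 in the dark and ZT8 in the light, 12 h apart, no member passed (edgeR) and neither did any other gene (0%). Nefl differed by 0.30 ± 0.09 (adjusted p = 0.0822) and Nefm by 0.32 ± 0.11 (adjusted p = 0.110). At an unadjusted p under 0.05, 3 members (Nefl, Nefm and Ina) and 22.3% of all genes passed. DESeq2 called 0 members and 7.17% of all genes. Groups did not overlap for 2 of them (Nefl and Ina), against 20.9% of all genes. Over all 15 pairs of time points, 3 members were called in at least 1 pair, against 21.4% of all genes, and for all 3 each such pair included ZT8.

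The calls at ZT8 rested on few libraries, among the members as among all genes. Without ZT8 replicate 2 or without ZT8 replicate 3, no member was called in either pair, with adjusted p-values (edgeR) from 0.0785 to 0.116 for Nefl and Nefm against ZT0 and from 0.0546 to 0.0737 against ZT16. The share of all genes called went from 18% to 1.72% and 6.99% against ZT0, and from 16.9% to 0.545% and 5.84% against ZT16. Without ZT8 replicate 2 the change from ZT0 was -0.31 for Nefl and -0.35 for Nefm, and without ZT8 replicate 3 it was -0.26 and -0.37. Without ZT8 replicate 1, 4 members were called against ZT0 (Prph added, higher at ZT8) and 3 against ZT16, beside 24.9% and 24.1% of all genes. Leaving out ZT0 replicate 1 or ZT0 replicate 3 also ended all calls of members against ZT0 (3.99% and 7.05% of all genes called). Without ZT16 replicate 2, 0 members were called between ZT16 and ZT8, and without ZT16 replicate 1, 1 was (0.45% and 5.53% of all genes).

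The summed cholinergic markers moved with these members. Of the 6 markers, 4 were called lower at ZT8 than at ZT0 and 5 higher at ZT16 than at ZT8. The shares of all genes were 9.02% and 9.11%. Over the 18 immunoprecipitates, which share the scaling of their library, Pearson's r of log2 CPM with the summed cholinergic level was 0.90 for Nefl, 0.91 for Nefm, 0.74 for Ina, 0.38 for Nefh and -0.73 for Prph. With the summed astrocyte markers r was 0.80 for Nefl and 0.79 for Nefm, and with the summed oligodendrocyte markers it was 0.22 and 0.33. Most of the astrocyte sum was Aldoc, at a mean of 608 CPM in the immunoprecipitates, with Slc1a2 next at 81.5 CPM. Aldoc had a log2 ratio to the input of -1.26, against -2.56 to -5.08 for the other astrocyte markers. Among the 6 astrocyte markers, 1 was called lower at ZT8 than at ZT0 (9.02% of all genes). The markers of other neurons also moved with members. For the 3 excitatory markers (44.2 to 77.7 CPM in sum, 171 CPM in the input) r was -0.68 with Nefl and -0.69 with Nefm, and for the 4 inhibitory markers (248 to 347 CPM, 804 CPM in the input) it was 0.48 with Nefl, 0.50 with Nefm and -0.78 with Prph. Astrocyte markers summed to 519 to 666 CPM at ZT8 and 756 to 824 CPM at ZT0, without overlap, and the ranges for oligodendrocyte markers, 1761 to 2021 and 1840 to 2239 CPM, overlapped. The part of any of these in the calls at ZT8 was not tested beyond a fit with the oligodendrocyte sum as a covariate. In that fit the change from ZT0 was -0.35 for Nefl and -0.42 for Nefm (adjusted p = 0.0176 and 0.0190, edgeR). It called 4 members, with Prph added and higher at ZT8 (adjusted p = 0.0336, edgeR), and 18.8% of all genes. The cholinergic and astrocyte sums, which had the larger r with Nefl and Nefm, were not fitted.

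**Figure D3:**
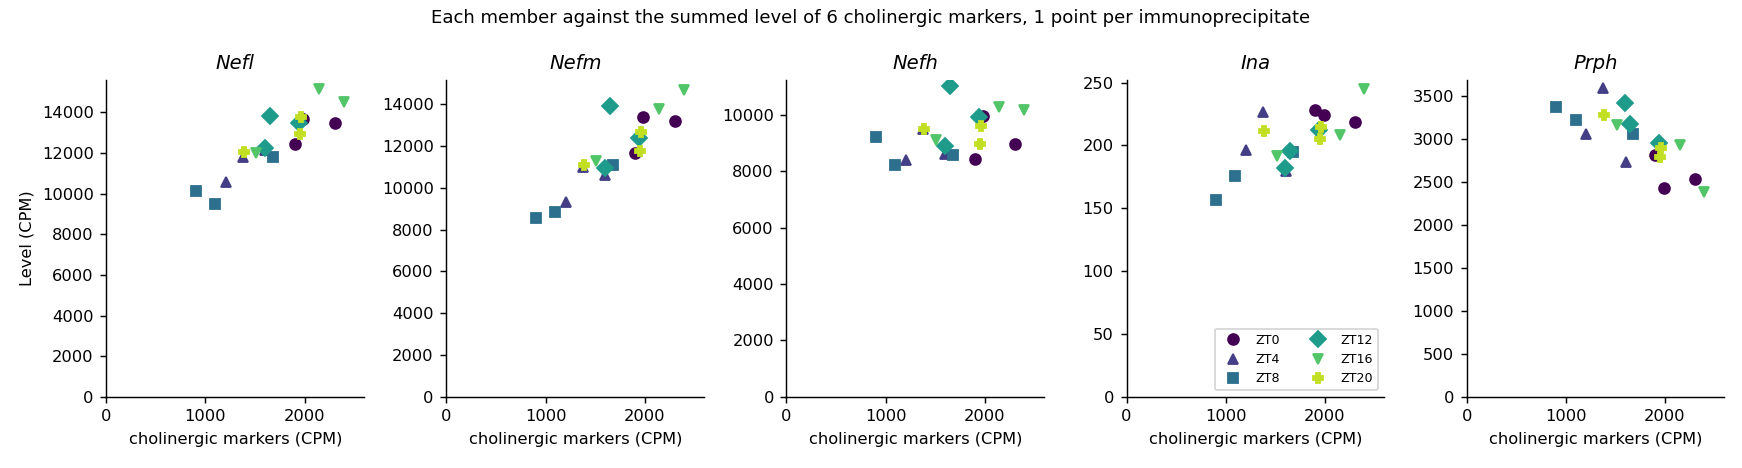
Level of each member (CPM) against the summed CPM of 6 cholinergic markers in the same library, 1 point per immunoprecipitate with a symbol for each time point, both axes linear from 0. Nefl and Nefm are higher where the sum is higher (r = 0.90 and 0.91 on the log2 scale) and Prph is lower (r = -0.73), with ZT8 replicates 2 and 3 at the far left.

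A 24-h cosine curve was called for no member, against 6.24% of all genes (edgeR cosinor). Nefl came closest, with an amplitude of 0.16 on the log2 scale (from the middle to the peak), a fitted peak at ZT18.1 and an adjusted p of 0.0505. Nefm had an amplitude of 0.20, the same fitted peak of ZT18.1 and an adjusted p of 0.0590. Ina (amplitude 0.14, peak ZT20.7), Nefh (0.09, ZT15.7) and Prph (0.12, ZT9.46) had adjusted p-values of 0.125, 0.168 and 0.241. At an unadjusted p under 0.05, 4 members and 26.7% of all genes passed, and DESeq2 called 2 members, Nefl and Nefm, and 14.8% of all genes.

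When any difference among the 6 time points was tested without a curve, 1 member was called, Nefm (adjusted p = 0.0449), against 6.74% of all genes. Nefl missed the threshold (adjusted p = 0.0507), and Ina, Prph and Nefh were at 0.273, 0.264 and 0.404 (edgeR). The call for Nefm was lost with the replicate number as a block. Leaving out single libraries, 2 members were called without ZT8 replicate 1, ZT12 replicate 1, ZT16 replicate 3 or ZT20 replicate 3, 1 without ZT0 replicate 2, and 0 without any of the others. The share of all genes called was 7.05 to 15.2% in the fits with 2 members, 5.46% in that with 1 and 0.0314 to 7.44% in those with 0. JTK_Cycle, a rank test against cosine curves of 20, 24 and 28 h, called 0 members and 0.0385% of all genes after adjustment over genes. Adjusted within the gene alone it passed 2 members, against 15.8% of all genes. These were Nefm (JTK_Cycle, exact null with Bonferroni adjustment over the 18 curves compared, p = 0.00799) and Nefl (p = 0.0122). Both had a best period of 20 h and a peak at ZT16. The study, which ran JTK_Cycle with the same periods, names Nefl among its rhythmic genes. It also reports a far larger share of genes as rhythmic, at an FDR-adjusted p under 0.05, than the 0.0385% found here after adjustment over genes. That share is below the 15.8% passed here when adjusted within the gene alone. The cause of the difference from the study was not tested.

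Ratios between members within a library do not depend on how the library is scaled. The log2 ratio of Nefl to Nefm in CPM was nearly level, from a mean of 0.05 at ZT0 to 0.16 at ZT4, and its range over the 18 libraries was 0.26. Time point held 33.4% of its variance (permutation test with 100000 resamples, p = 0.371, adjusted over the 10 ratios 0.371). The Nefm to Prph ratio had the widest range, 1.28, with means of 2.30 at ZT0, 1.56 at ZT8 and 2.23 at ZT16. That is a 1.67-fold difference between ZT0 and ZT8, and the 3 libraries of ZT8 (1.34 to 1.86) lay below the 3 of ZT0 (2.05 to 2.46) in this ratio of CPM, which is not set per length. Time point held 59.3% of its variance (permutation test, p = 0.0355, adjusted p = 0.112).

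The ratios of Ina to Prph (60.2%, permutation p = 0.0289), Nefm to Nefh (58.3%, permutation p = 0.0323) and Nefl to Prph (57.9%, permutation p = 0.0447) all had an adjusted p of 0.112, and the remaining 5 had an adjusted p of 0.174 or more. Hence no ratio passed adjustment over the 10. All 4 of these ratios had their highest mean at ZT0 and their lowest at ZT8. In the Nefm to Nefh ratio, replicates of ZT8 spread from -0.11 to 0.38, more widely than the time point means, which ran from 0.12 to 0.48. Tested as the share explained by a 24-h cosine curve instead, 7 of the 10 ratios passed, each with an adjusted permutation p of 0.0491.

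**Figure D4:**
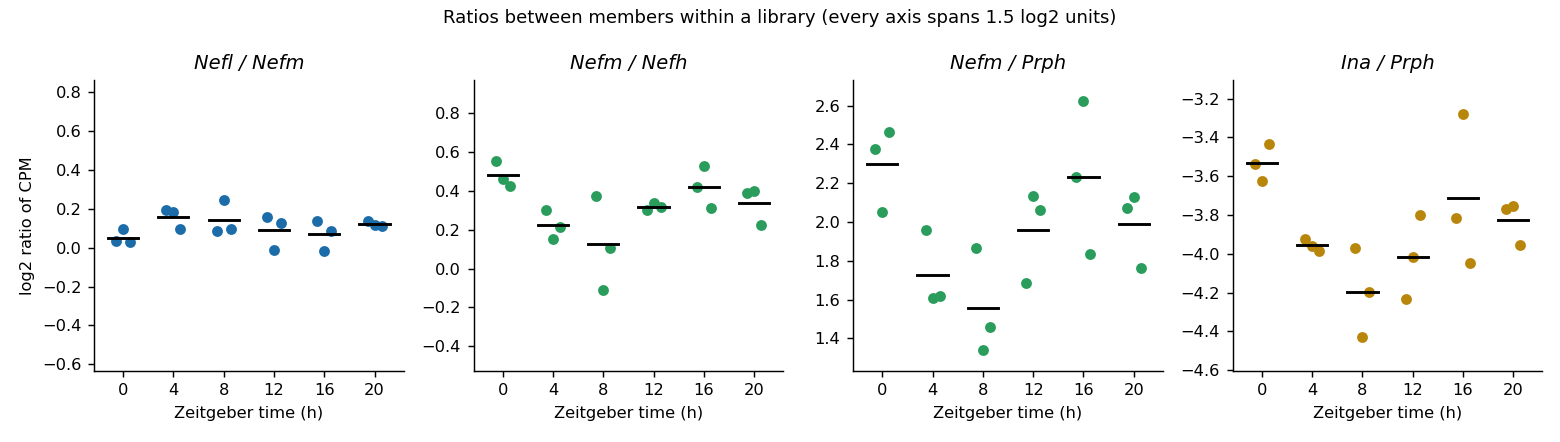
log2 ratio of CPM of 2 members in the same immunoprecipitate against Zeitgeber time, with bars at the mean of 3 libraries, and every vertical axis spanning 1.5 log2 units. The Nefl to Nefm ratio stays within 0.26, while the Nefm to Prph ratio has means of 2.30 at ZT0 and 1.56 at ZT8 with wide scatter at ZT8 and ZT16.

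Nefl and Nefm were the pair most alike. Over the 18 immunoprecipitates Pearson's r of their log2 CPM was 0.96, and 0.91 for deviations from the time point means. Nefm was the gene most like Nefl among the 15571 others, followed by Map6 (0.96), which encodes a microtubule stabilizer, and Rragc (0.95), a GTPase of amino acid signalling. Closest to Nefm were Ddx24 (0.96), an RNA helicase, then Nefl, then Tubb4a (0.96), a neuronal tubulin. High values were common, since 11.2% of all genes had an r above 0.7 with Nefl. Nefh had an r of 0.70 with both Nefl and Nefm, and its nearest gene was Rbmx (0.83), an RNA-binding protein, then Ascc2 (0.79) and Cavin2 (0.79). For Nefh such values were rare, since 0.09% of all genes had an r above 0.7 with it. Nefm was the 12th nearest gene to Nefh and Nefl the 14th. Ina was nearest to Slitrk3 (0.95), a synaptic adhesion protein, Nos1 (0.90), the neuronal nitric oxide synthase, and L3mbtl2 (0.89). Prph had an r of -0.55 with Nefl and -0.58 with Nefm and was nearest to Anxa2 (0.96), a calcium-dependent membrane-binding protein, Snrpb (0.96), a core protein of the spliceosome, and Sult4a1 (0.96), a neuronal sulfotransferase family member.

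The other intermediate filament genes differed from the members in their ratio to the input. Their median log2 ratio was -0.37, against 3.05 for the members and 0.03 for all genes tested. Of the 9, 3 were enriched and 3 depleted, against 13.7% and 23% of all genes compared. Vim (vimentin, of astrocytes, vessels and other non-neuronal cells) was at 5.75 ± 2.04 CPM against 50.9 CPM in the input. Gfap (the astrocyte filament) was at 59.5 ± 10.7 CPM against 885 CPM, and Nes (nestin, of progenitors and vessels) at 5.07 ± 1.47 CPM against 6.77 CPM. Synm (synemin, which copolymerizes with other filaments) and the lamin gene Lmna were enriched, at 161 ± 25.6 against 67.0 CPM and at 121 ± 18.4 against 37.4 CPM.

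Over time, 4 of these 9 genes passed the cosinor or 1 of the 3 pairs (edgeR). Of all genes tested, 6.24% passed the cosinor, 18% ZT8 against ZT0, 16.9% ZT16 against ZT8 and 0% ZT20 against ZT8. Vim was the only one of the 9 called by the cosinor (amplitude 0.60, peak ZT16.9, adjusted p = 0.0373). It rose by 0.99 ± 0.27 from ZT8 to ZT16 (adjusted p = 0.0179). Lmna rose by 0.42 ± 0.12 between the same times (adjusted p = 0.0256), and Lmnb2, another lamin, fell by 0.76 ± 0.19 from ZT0 to ZT8 (adjusted p = 0.0123). Synm was higher at ZT8 than at ZT0 by 0.53 ± 0.12 (adjusted p = 0.00923) and lower at ZT16 than at ZT8 (-0.40 ± 0.12, adjusted p = 0.0318). Gfap differed by 0.40 ± 0.15 from ZT8 to ZT16 (adjusted p = 0.0710) and Nes by 0.06 ± 0.32 (adjusted p = 0.930). The median change from ZT0 to ZT8 was -0.23.

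Of 19 genes that move, cross-link, phosphorylate or turn over neurofilaments or bind their mRNA, 5 were called higher and 3 lower at ZT8 than at ZT0 (edgeR). The shares of all genes were 8.95% and 9.02%. Between ZT16 and ZT8, 3 were higher and 4 lower at ZT16, against 9.11% and 7.8% of all genes. The median change of the 19 from ZT0 to ZT8 was 0.15. Among the kinesin heavy chains, which carry neurofilaments along axons, Kif5a went the other way from Kif5b and Kif5c. Kif5a was lower at ZT8 than at ZT0 (-0.43 ± 0.11, adjusted p = 0.0155) and higher again at ZT16 (0.49 ± 0.11, adjusted p = 0.00922). Kif5c was higher at ZT8 (0.51 ± 0.12, adjusted p = 0.0102) and lower at ZT16 (-0.46 ± 0.12, adjusted p = 0.0169). Kif5b likewise was higher at ZT8 (0.46 ± 0.15, adjusted p = 0.0338) and lower at ZT16 (-0.48 ± 0.15, adjusted p = 0.0291, edgeR). The kinesin light chain Klc1 also was higher at ZT8 (0.45 ± 0.10, adjusted p = 0.00888) and lower at ZT16 (-0.39 ± 0.10, adjusted p = 0.0151), and it was the only gene of this list called by the cosinor (amplitude 0.18, peak ZT7.79, adjusted p = 0.0434).

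Among the others, Mapk3, a kinase of neurofilament tails, was higher at ZT8 than at ZT0 (0.46 ± 0.12, adjusted p = 0.0155, edgeR). Dst, a large linker of filaments to microtubules and actin, was lower (-0.91 ± 0.26, adjusted p = 0.0210). Hspb1, a small heat shock protein that keeps neurofilaments from clumping, was not called in any of these tests (0.09 ± 0.13 from ZT0 to ZT8, adjusted p = 0.709). It was enriched in the immunoprecipitates at 626 ± 72.5 CPM against 35.5 CPM in the input, a ratio of 17.6. In all, 6 genes of this list were enriched, against 13.7% of all genes compared. Kif5a, at 887 ± 126 CPM, was below the input (1123 CPM) in 17 of 18 immunoprecipitates.

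**Figure D5:**
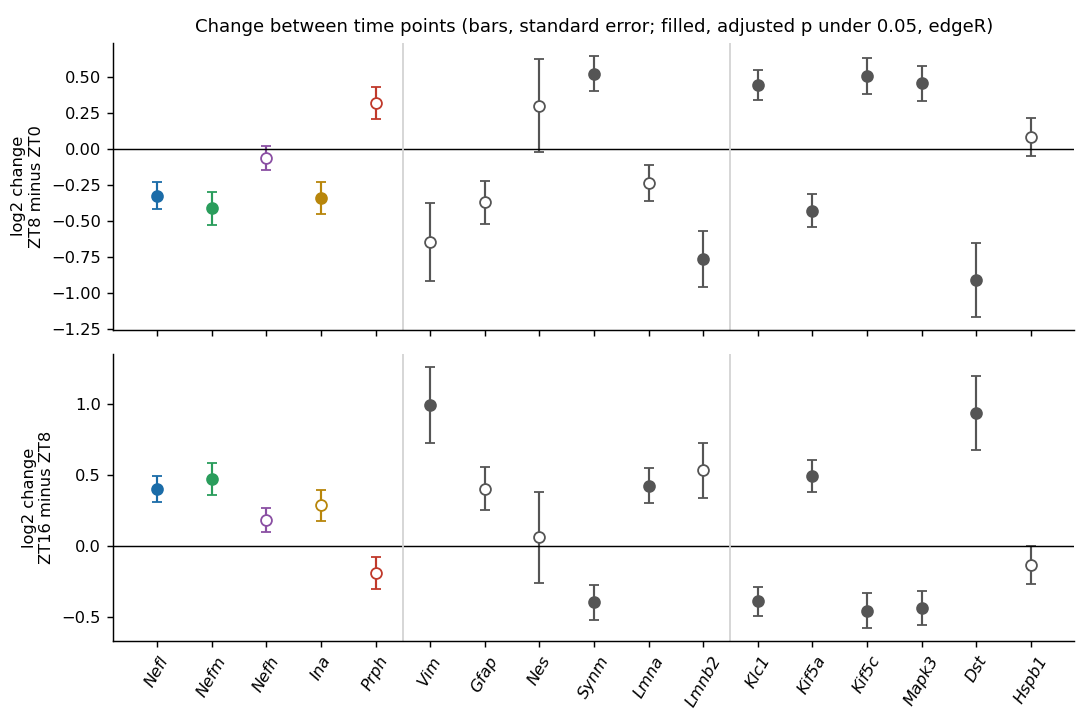
log2 change between time points (edgeR, 18 immunoprecipitates) for the members, 6 other intermediate filament genes and 6 genes that handle neurofilaments, ZT8 minus ZT0 above and ZT16 minus ZT8 below. Bars are standard errors and filled points have an adjusted p under 0.05. Nefl, Nefm and Kif5a are filled and change sign between the panels, as are Synm, Klc1 and Kif5c in the opposite sense.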

How the data were processed

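The authors mapped paired reads to mm10 with STAR 2.7.5 and estimated gene levels with RSEM 1.3.0 on the Ensembl 98 annotation (submitters' processing notes and the study's methods). What they deposited are expected counts for each gene without normalization. The strand setting of the quantification is not given in the sources used here. Samples were grouped by the Zeitgeber time in their labels, and all 19 value columns were mapped by name. p-values measure the spread between the labelled biological replicates.

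Expected counts were rounded. Genes were kept by filterByExpr of edgeR 4.0.16 (R 4.3.3), libraries were scaled by TMM, and log2 CPM carried a prior count of 2. Tests were quasi-likelihood F-tests on the 18 immunoprecipitates, and JTK_Cycle with an exact null and equal cosine values merged, at a threshold of 0.05. Levels are CPM with TMM over all 19 libraries. Lengths are from GENCODE M21, not the annotation of the counts, and coordinates from RefSeq (all 5 members matched by symbol). Scripts were tested on simulated data. Alternatives were DESeq2 1.42.0, other scalings and filters, a replicate block, a covariate, other periods and lengths, and leaving out replicates or libraries.

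The members, the gene lists and the tests were chosen with earlier results of these data known. The genes named are the members, the 3 genes most like each, and of the 2 lists up to 5 with the lowest p among those that passed. Vim, Gfap, Nes, Kif5a and Hspb1 are named in any case, and Kif5b is named beside the other kinesin heavy chains. Replicates were not treated as paired by their shared numbers, except in the alternative with a replicate block. Among the members, Ina had the fewest counts in the immunoprecipitates and Prph in the input. Intervals on the input cover counting error alone, because no molecular identifiers were read. The sequences of coding stretches shared between members are not reported here.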

Additional observations from a re-analysis of the deposited data

How the results depend on the processing

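The 4 enriched members were called under all alternative scalings, at a 4-fold minimum and without any replicate or library. Library totals lowered the log2 ratio of all 5 members. It went from -0.56 to -0.89 for Ina, from 2.71 to 2.38 for Nefl and from 3.05 to 2.72 for Nefm. For Nefh it went from 3.35 to 3.02 and for Prph from 4.71 to 4.37. The calls over time were less stable. Between ZT8 and ZT0 the 3 calls became 1 (Nefm) in a fit of the 6 libraries of both time points alone (13.8% of all genes called) and ranged from 0 to 4 when a replicate or library was left out. Between ZT16 and ZT8 the 2 calls became 0 in a fit of 6 libraries, which called 0.00694% of all genes, and ranged from 0 to 3. Without replicate 2, 0% of all genes were called in either pair (edgeR). Between ZT20 and ZT8 the count was 1 with genes kept from 1 count on (6.41% of all genes) and ranged from 0 to 2, with 2 without ZT8 replicate 1 (14.4% of all genes). The cosinor called 1 member with library totals, 2 with genes kept from 1 count on and 2 with DESeq2 (5.63%, 9.18% and 14.8% of all genes). It called from 0 to 2 when a replicate or library was left out. The count was 2 without replicate 3, ZT16 replicate 3 or ZT20 replicate 3 (9.76%, 9.61% and 16.6% of all genes). The test among the 6 time points called 2 members with library totals, with the 1-count filter and with DESeq2 (6.49%, 10.8% and 16.1% of all genes), and 0 with the oligodendrocyte markers as a covariate (2.83%), with a leave-one-out range of 0 to 2. Calls in any pair ranged from 0 (without replicate 2, ZT8 replicate 2 or ZT8 replicate 3) to 4. In the fits with 0, ZT8 against ZT0 called 0%, 1.72% and 6.99% of all genes, in the same order. ZT16 against ZT8 called 0%, 0.545% and 5.84% of all genes. JTK_Cycle called 2 members when adjusted within the gene alone and 2 without ZT16 replicate 3 (leave-one-out range 0 to 2; 15.8% and 4.67% of all genes). The cause of these differences was not tested. The direction of Nefh between ZT0 and ZT8 ranged from -0.17 to 0.0323 when a replicate or library was left out (0.0323 without replicate 3 and 0.000711 without ZT0 replicate 3), and it was not called in any setting. The order per kilobase held for 3 of 5 members with merged exons, and for all 5 by their means when the mRNA with the longest coding sequence set the length (Nefl above Nefm in 16 of 18 libraries), an alternative added after the gene models had been seen.

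Replicate numbers are shared between time points, but same-numbered libraries had a median correlation of deviations of -0.004 (45 pairs, of which 4 were over 0.1). Libraries with different numbers had a median of -0.003 (90 pairs, of which 9 were over 0.1). With the replicate block the test among the 6 time points called 0 members (6.45% of all genes), and 2 ratios between members passed in place of 0 (leave-one-out range 0 to 3, with 3 without ZT16 replicate 3), against 7 when the share explained by a cosine curve was tested. The block changed no other count of members called, but JTK_Cycle then called 2.29% of all genes, against 0.0385% without it. Whether same-numbered replicates share a source of spread was not settled by these values.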
